A study of Mus musculus with 8 samples.

Results

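The IGF system of the liver was followed across 9 transcripts: the ligand Igf1, the acid-labile subunit Igfals, the binding proteins Igfbp1, Igfbp2, Igfbp3, Igfbp4 and Igfbp7, and the receptors Igf1r and Igf2r. The members were chosen by symbol, and all 9 were found by their Ensembl identifiers among the 14317 mouse genes of the table. Livers came from female mice on a western diet (WD) that were 7 weeks old when silastic pellets were implanted. The Con-DHT group carried a 10 mm pellet of dihydrotestosterone (DHT), an androgen that cannot be turned into estrogen, and the Con-Veh group an empty one, with pellets replaced every 4 weeks. Each group held 4 mice with 1 library each, and treatment and diet lasted 8.5 weeks. All 8 mice are labelled WT. The study's methods give an overnight fast before the livers were taken, which both groups shared.

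Insulin-like growth factor 1 is the main growth factor that the liver releases into blood, and its transcription follows growth hormone through JAK2 and STAT5b. In blood most of it travels in a complex with IGFBP3 or IGFBP5 and the acid-labile subunit, and the remaining binding proteins carry it in smaller complexes that proteases can open. IGF1R is the tyrosine kinase that signals for the ligands, while IGF2R has no such activity, takes up IGF2 and carries enzymes tagged with mannose 6-phosphate to lysosomes. Liver is a major source of several of these proteins and is itself poor in IGF1R.

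No member passed the threshold. With limma and Benjamini-Hochberg adjustment over all 14312 tested genes, 0 of the 9 members reached an adjusted p of 0.05 or less in the comparison of Con-DHT with Con-Veh, against 7.21% of all tested genes. By direction, 4.6% of all tested genes were higher and 2.61% lower in Con-DHT. The count of members was also 0 with edgeR, which called 7.15% of all genes, and with DESeq2, which called 11.0%. At an unadjusted p of at most 0.05, 2 members passed with limma (Igfbp2 and Igf1r), 1 with edgeR and 2 with DESeq2, where limma's share of all tested genes was 23.2%. Groups without overlap were found in 1 of the 9 members, Igf1r, and in 15.1% of all tested genes. The members' median log2 fold change was 0.02, beside -0.0081 for all tested genes. With values scaled by the spike-in RNA, that median of all genes moved to 0.188, and 7 rather than 5 of the members had a value above 0.

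Libraries held between 13123962 and 17815944 reads on mouse genes, and spike-in RNA made up between 1.68% of the reads, in Con-Veh replicate 4, and 3.61%, in Con-Veh replicate 1. Of the members, Igf1r had the fewest reads, between 69 and 103 per library. Alb, which marks hepatocytes, had normalized counts of 539803 or more in every library. All values below are the deposited normalized counts (reads over the library's size factor), fold changes are on the log2(value + 1) scale, and intervals are 95% intervals from limma. The labels number the livers of a group without saying how the mice were housed. The p-values set the difference of the groups against the spread between livers, which limma moderates with that of all tested genes.

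Among the genes with known regulatory ties, Igfals is a textbook target of growth hormone and STAT5, and Igfbp1 of insulin and FOXO1. The 250 bases before the RefSeq transcription starts of the members (GRCm38.p6, 12 windows over the 9 genes) were therefore searched for the STAT5 motif TTCNNNGAA, the FOXO motif TGTTTAC and the insulin response motif TGTTTTG, on both strands. The last of these was added after the sequences were seen. The 2 windows printed here are shown because they hold these letters, in capitals. The first lies on the + strand at chr17:24877981-24878230, with TGTTTAC 242 bases and the STAT5 motif 58 bases before the start. The second lies on the + strand at chr11:7197537-7197786, with the insulin response motif 108 bases before the start, read as CAAAACA because it stands on the opposite strand.
Igfals: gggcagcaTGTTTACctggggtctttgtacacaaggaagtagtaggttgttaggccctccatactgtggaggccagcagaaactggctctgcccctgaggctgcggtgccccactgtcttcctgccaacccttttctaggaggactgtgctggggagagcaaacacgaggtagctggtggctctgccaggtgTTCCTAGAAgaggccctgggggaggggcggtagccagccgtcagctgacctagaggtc
Igfbp1: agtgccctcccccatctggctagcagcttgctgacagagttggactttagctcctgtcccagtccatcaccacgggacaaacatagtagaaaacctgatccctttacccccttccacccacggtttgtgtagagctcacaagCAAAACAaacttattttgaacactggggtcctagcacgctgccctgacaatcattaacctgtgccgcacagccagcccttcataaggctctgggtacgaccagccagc
Igfals was the only one of the 9 genes with the letters TTCNNNGAA (2 of its windows) or TGTTTAC (1 window), and Igfbp1 the only one with TGTTTTG. Other letters that STAT5 or FOXO factors may bind were not searched, so a gene without these letters is not shown to lack a site. The 3 motifs do not overlap each other in these windows. Of all 32851 promoter windows of this length, 7.02% hold the STAT5 motif, 3.17% the FOXO motif and 5.56% the insulin response motif. The letters alone do not show that a factor binds there.

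Transcripts of the ligand, Igf1, differed between the groups by less than the spread between mice. Igf1 (chromosome 10, 87858265 to 87937042 of GRCm38) had normalized counts of 6476, 7481, 6678 and 5513 in Con-Veh replicates 1 to 4 and of 7003, 6407, 5489.8 and 7746 in Con-DHT replicates 1 to 4. The highest and the lowest value both belonged to Con-DHT, so that its range enclosed the whole of Con-Veh. The means were 6537 ± 809 and 6662 ± 954 (SD, n = 4), and the log2 fold change was 0.02 (SE 0.12, limma adjusted p = 0.932). The interval ran from a level 15.9% lower to one 23.0% higher in Con-DHT. Its sign was not stable: leaving out each mouse in turn gave log2 fold changes from -0.05 to 0.11. The tested genes of mean at least 50 whose log2 values followed those of Igf1 most closely over the 8 libraries were Cdk7, which encodes a kinase of the cell cycle and of transcription (Pearson's r = 0.978), Ufl1, which encodes a ligase of the ubiquitin-like modifier UFM1 (0.936), and Usp36, which encodes a deubiquitinase (0.931), the top 3 of 10724 genes compared. These libraries share their depth and scaling, and the ranking is a description.

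The acid-labile subunit, which the liver makes under growth hormone and which keeps the large IGF complex in blood, also stayed within the spread. Igfals (chromosome 17, 24865997 to 24882010) had normalized counts of 1828, 2089, 2553 and 2052 in Con-Veh and of 1850.3, 1910.3, 2085 and 1759 in Con-DHT. Con-Veh replicate 3 was highest, replicate 2 lay just above the highest Con-DHT liver, and the others fell among the Con-DHT values. The log2 fold change was -0.16 (SE 0.10, interval -0.38 to 0.07, limma adjusted p = 0.402), and it was 0.04 when the values were scaled by the spike-ins. Relative to the median of all genes under that scaling it remained on the lower side.

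**Figure D1:**
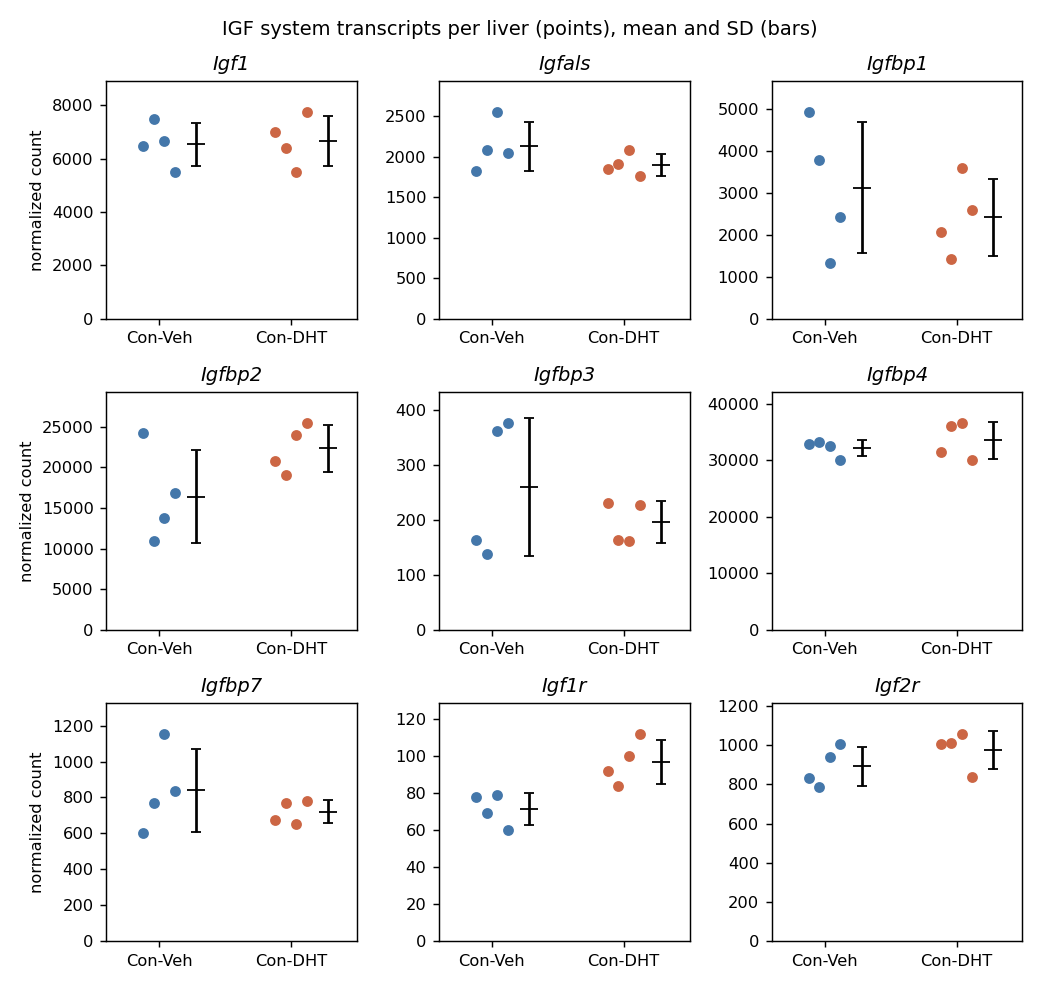
Normalized counts of the 9 IGF system transcripts in each liver (points, 4 per group, replicates 1 to 4 from left to right) with the mean and SD of the group (bars), each panel on its own linear axis from 0. Con-DHT lies wholly above Con-Veh for Igf1r, where the highest Con-Veh liver is at 78.9 and the lowest Con-DHT liver at 84.2, and the groups overlap in the other panels.

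The most abundant members were the binding proteins Igfbp2, Igfbp4 and Igfbp1, while Igfbp3 was among the lowest. Per kilobase of exon, a scale on which genes can be compared, mean levels in Con-Veh were 8879 ± 3095 for Igfbp2 and 7284 ± 325 for Igfbp4 (SD, n = 4), which overlap within that spread. Igfbp1 followed at 2049.5 ± 1029, then Igfbp7, Igfals and Igf1 at 694 ± 190, 673 ± 96.0 and 660.03 ± 81.7, again within each other's spread. Igf2r and Igfbp3 were near each other at 95.9 ± 10.9 and 83.2 ± 40.4, and Igf1r was lowest of the 9 at 4.27 ± 0.524. In Con-DHT the order was Igfbp2 (12087 ± 1563), Igfbp4 (7597 ± 750), Igfbp1 (1585 ± 601), Igf1 (673 ± 96.3), Igfals (600.3 ± 43.4), Igfbp7 (595 ± 53.7), Igf2r (105 ± 10.4), Igfbp3 (62.8 ± 12.3) and Igf1r (5.78 ± 0.705). Igf1, Igfals and Igfbp7, which changed places, stayed within each other's spread there too. As a share of the summed level per kilobase of the 5 binding proteins, Igfbp2 made up between 35.6% and 53.8% in Con-Veh livers and between 51.3% and 59.9% in Con-DHT livers. Igfbp4 took between 30.6% and 45.3% and between 29.6% and 40.6%, so that these 2 genes held most of the binding protein transcripts in every liver.

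**Figure D2:**
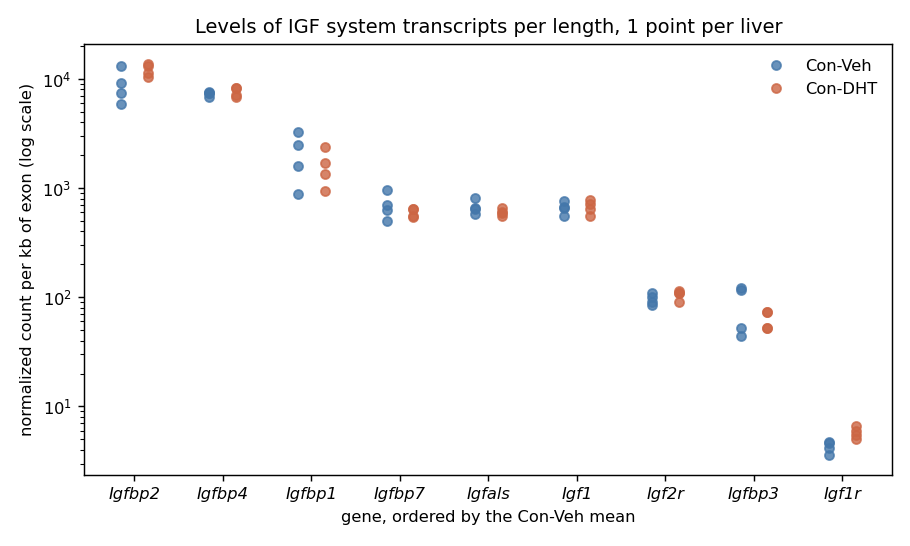
Normalized counts per kilobase of exon for each member in each liver (points, Con-Veh left and Con-DHT right of each tick) on a log axis, ordered by the Con-Veh mean. Igfbp2 and Igfbp4 lie highest, with Con-Veh means of 8879 and 7284, and Igf1r lowest, at 4.27.

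Igfbp2, a hepatocyte product that rises on fasting, had the largest log2 fold change of the members, and it passed only without Con-Veh replicate 1. Igfbp2 (chromosome 1, 72824503 to 72852474) had normalized counts of 24171, 10898, 13714 and 16810.4 in Con-Veh and of 20816, 19099, 23950.5 and 25436 in Con-DHT. Con-Veh replicate 1 was as high as the Con-DHT livers, and the other Con-Veh livers lay below all of them. The means were 16399 ± 5717 and 22325 ± 2887 (SD, n = 4), and the log2 fold change was 0.50 (SE 0.22, interval 0.02 to 0.98). The difference did not pass (unadjusted p = 0.0427, adjusted p = 0.196 by limma; exact two-sided permutation test p = 0.143). Without Con-Veh replicate 1, which also had the largest share of spike-in reads, the log2 fold change was 0.71 and the adjusted p 0.0377. Leaving out any other mouse gave adjusted p values up to 0.4, and 0.4 was the value without Con-Veh replicate 2, where the log2 fold change was 0.32. The 13 other settings gave adjusted p values between 0.105 and 0.321.

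Igfbp1, the fasting-induced binding protein that insulin represses, varied most between mice. Its gene (chromosome 11, 7197782 to 7202546) had normalized counts of 4931, 3796, 1337 and 2438 in Con-Veh and of 2060.3, 1423, 3587 and 2600.2 in Con-DHT. The Con-Veh livers were spread over a range that held every Con-DHT value, and their coefficient of variation was 50.2%, against 37.9% in Con-DHT. The log2 fold change was -0.29 (SE 0.39, limma adjusted p = 0.708), with an interval from 54.9% lower to 48.4% higher. An SE of this size stood at the 93.1st percentile of all tested genes, and changes inside this interval could not be told from none.

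Igfbp3 and Igfbp7 shared a pattern within Con-Veh. IGFBP3 is the main carrier of IGF1 in blood and is made in liver largely outside hepatocytes, and IGFBP7 binds IGFs weakly and is found in vessels and stroma. Igfbp3 (chromosome 11, 7206086 to 7213923) had normalized counts of 164, 139, 362 and 377 in Con-Veh and of 232, 165, 162 and 228 in Con-DHT. Con-Veh replicates 3 and 4 were above all Con-DHT livers, replicate 2 was below them, and replicate 1 was level with the lowest. The log2 fold change was -0.28 (SE 0.32, limma adjusted p = 0.645), with a coefficient of variation of 48.6% among Con-Veh livers and 19.5% among Con-DHT livers. Igfbp7 (chromosome 5, 77349240 to 77408041) had normalized counts of 604, 766, 1152 and 836 in Con-Veh and of 674, 770.3, 654 and 780.5 in Con-DHT. Here too Con-Veh replicates 3 and 4 were the highest livers and replicate 1 the lowest. Its log2 fold change of -0.19 (SE 0.17, limma adjusted p = 0.551) was 0.01 with spike-in scaling. The gene Polr2b overlaps it on the opposite strand, at normalized counts between 467 and 679. Reads could have been shared if their exons overlap, which was not checked.

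Markers of stellate cells and fibroblasts, summed over all 7 listed genes, were also highest in Con-Veh replicates 3 and 4. Their summed normalized counts were 1673, 1461, 4950.4 and 2752 in Con-Veh and 2281, 2280.9, 1983 and 2394 in Con-DHT. Con-Veh replicate 3 was highest and replicate 4 second in the sum, with Con-Veh replicates 1 and 2 lowest. The more abundant genes weigh most in this sum, and not every marker followed it: Col1a1 was lowest of the Con-Veh livers in replicate 4, at 97.5. Between the groups, 5 of the 7 markers had log2 fold changes above 0 by limma (median 0.08), and 3 of the 7 by edgeR and by DESeq2. With a mouse left out, the limma count ran from 1, without Con-Veh replicate 2, to 5, so that the direction of the list was not stable. Marker log2 fold changes ran from -1.485 to 0.22 by limma, and those of Igfbp3 and Igfbp7 were below 0. No marker of the list was at 0, and 0 of the 7 passed limma, edgeR or DESeq2, with 1 at an unadjusted p of at most 0.05 by each. The summed markers of sinusoidal endothelial cells were 3511, 3747, 3625 and 3873 in Con-Veh and 2608, 3085, 2714 and 2859 in Con-DHT. They were highest in Con-Veh replicate 4 and lower in every Con-DHT liver than in any Con-Veh liver. The part of either cell type in the levels of Igfbp3 and Igfbp7 was not tested. In whole liver, fewer cells of a type and less RNA per cell cannot be told apart. Without Con-Veh replicate 3 the adjusted p was 0.915 for Igfbp3 and 0.94 for Igfbp7.

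**Figure D3:**
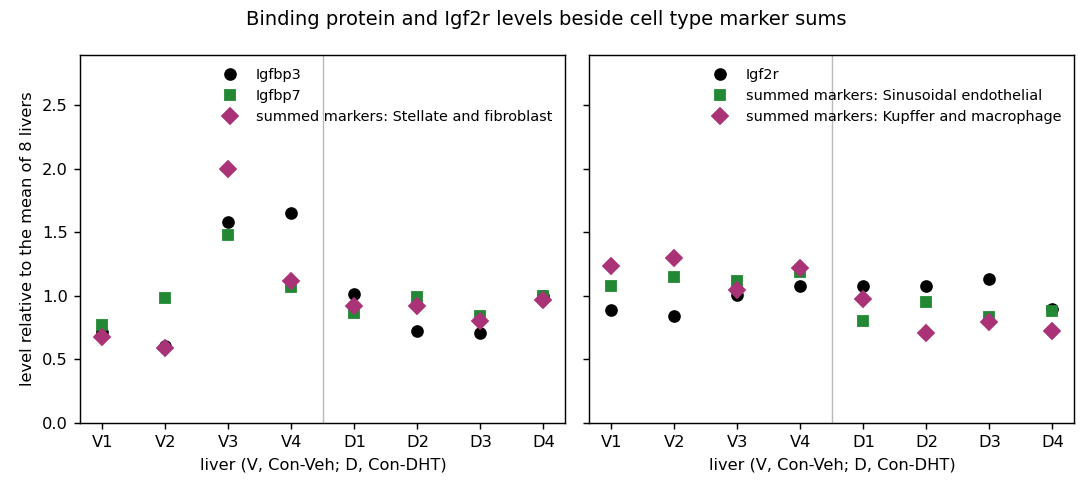
Levels in each liver relative to the mean of the 8 livers for Igfbp3, Igfbp7 and the summed stellate cell and fibroblast markers (left), and for Igf2r and the summed sinusoidal endothelial and Kupffer cell markers (right). Con-Veh replicate 3 is high in all 3 measures of the left panel, with 362, 1152 and 4950.4 normalized counts, while on the right both marker sums lie lower in Con-DHT and the Igf2r values of the groups overlap.

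Igfbp4, an inhibitor of IGF action that the protease PAPP-A cleaves, was the steadiest of the binding proteins in Con-Veh. Igfbp4 (chromosome 11, 99041244 to 99054392) had normalized counts of 32836, 33210.4, 32559.5 and 30051 in Con-Veh and of 31441, 36127, 36606 and 30022 in Con-DHT. The Con-Veh values lay inside the Con-DHT range, with a coefficient of variation of 4.46% among Con-Veh livers and 9.87% among Con-DHT livers. The log2 fold change was 0.06 (SE 0.11, limma adjusted p = 0.812), and the interval ran from 12.5% lower to 23.6% higher.

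Of the receptors, Igf1r was higher in every Con-DHT liver, at a low level and without passing the adjusted threshold. Igf1r (chromosome 7, 67952827 to 68233668) had normalized counts of 78.1, 69.5, 78.9 and 60.1 in Con-Veh and of 92.2, 84.2, 100.02 and 112 in Con-DHT. The groups did not overlap, though the highest Con-Veh and the lowest Con-DHT liver were close. The means were 71.6 ± 8.80 and 97.1 ± 11.8 (SD, n = 4), and the log2 fold change was 0.43 (SE 0.14, interval 0.11 to 0.76). The unadjusted p was 0.0131 and the adjusted p 0.103 by limma, and the exact two-sided permutation test gave 0.0286, the smallest p that 4 mice against 4 allow over 70 arrangements. Its adjusted p lay between 0.0543 (an equal total without the Mup genes) and 0.513 (spike-in scaling) under the 13 other settings and between 0.112 and 0.229 in fits without 1 mouse, with the log2 fold change above 0 throughout. Under spike-in scaling that log2 fold change was 0.63, where the median of all genes was 0.188.

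Igf2r, the mannose 6-phosphate receptor, differed by less than the spread. Igf2r (chromosome 17, 12682406 to 12769664) had normalized counts of 833, 786, 942 and 1008 in Con-Veh and of 1008, 1010.3, 1056 and 837 in Con-DHT. Most Con-DHT livers were at the top of the Con-Veh range or above it, and Con-DHT replicate 4 was near its bottom. The log2 fold change was 0.13 (SE 0.10, interval -0.09 to 0.36, limma adjusted p = 0.479). Igf2r is imprinted and overlaps the antisense RNA Airn, which had normalized counts of only 22.3 to 51.1. Likewise Igf1os overlaps Igf1 on the opposite strand, at 12.8 to 44.9. Whether the counting used the strand is not given in the sources used here. These overlaps are between whole genes with their introns, and whether the exons overlap was not checked. Where exons do overlap, the reads cannot be told apart without the strand.

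**Figure D4:**
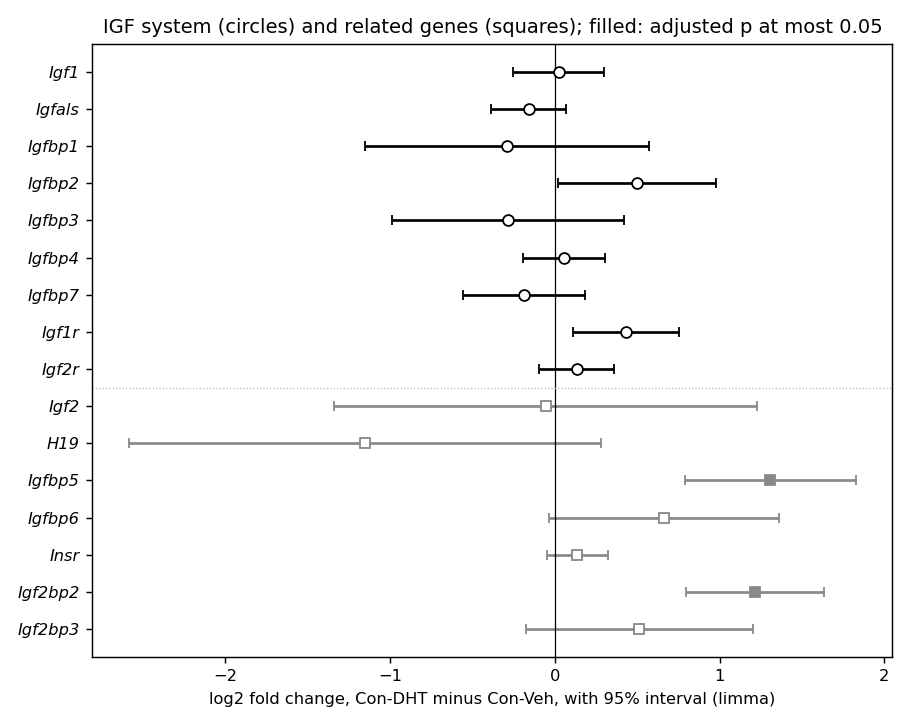
Log2 fold changes (Con-DHT minus Con-Veh, limma on log2(value + 1)) with 95% intervals for the 9 members (circles) and for related genes (squares), filled where the adjusted p is at most 0.05. The intervals of Igfbp2 (0.02 to 0.98) and Igf1r (0.11 to 0.76) leave out 0 but no member is filled, whereas Igfbp5 and Igf2bp2 are.

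Outside the members, Igfbp5 and Igf2bp2 were higher in Con-DHT. Igfbp5, which like IGFBP3 can form the large complex with the acid-labile subunit, had normalized counts of 235, 197, 168 and 125 in Con-Veh and of 322, 413, 419 and 666 in Con-DHT. The groups did not overlap, and the log2 fold change was 1.31 (SE 0.23, limma adjusted p = 0.00914). It passed under all 13 other settings and with each mouse left out. The gene is the neighbour of Igfbp2 on chromosome 1, in the opposite orientation and with 5457 bases between their ends, as Igfbp1 and Igfbp3 face each other on chromosome 11 with 3539 bases between. Of the 5 other IGF family genes in the table it was the 1 that passed. Of all tested genes, 7.21% passed by limma, 4.6% passed and were higher, and 15.1% had groups without overlap. Igf2 (log2 fold change -0.05, adjusted p = 0.97), the imprinted noncoding RNA H19 (-1.15, adjusted p = 0.321), Igfbp6 (0.66, adjusted p = 0.237) and the insulin receptor Insr (0.14, adjusted p = 0.351) did not pass by limma. The log2 fold change of Igf2 was above 0 in some settings and below 0 in others, and its highest liver was Con-DHT replicate 1.

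Igf2bp2, whose protein binds Igf2 and other mRNAs, had normalized counts of 51.7, 40.5, 46.9 and 35.7 in Con-Veh and of 93.2, 103, 82.7 and 136 in Con-DHT. Every Con-DHT liver was above every Con-Veh liver, with a log2 fold change of 1.22 (SE 0.19, limma adjusted p = 0.00446) that passed under all 13 other settings and with each mouse left out. Igf2bp3 was low and did not pass (0.51, adjusted p = 0.363). Thus 1 of the 2 tested genes whose proteins bind Igf mRNAs passed by limma, beside 7.21% of all tested genes.

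Of 15 tested genes that act on Igf1 from the growth hormone side, 2 passed by limma, 1 higher and 1 lower. That stood beside 7.21% of all tested genes. The list median was -0.13, and log2 fold changes ran from -2.64 to 0.93. The gene at -2.64 did not pass by limma (adjusted p = 0.0783), though its groups did not overlap. Bcl6, a repressor that competes with STAT5, had a log2 fold change of 0.93 (SE 0.24, limma adjusted p = 0.0453). Of the 8 fits with a mouse left out, Bcl6 passed in 2, those without Con-Veh replicate 2 and without Con-DHT replicate 4, with adjusted p values up to 0.114, without Con-DHT replicate 2. Its call was also lost with a mean of at least 50 (adjusted p = 0.0575), with limma without the trend (0.0928) and with the replicate block (0.0549). The receptor Ghr (-0.04, adjusted p = 0.916), Jak2 (-0.06, adjusted p = 0.837) and Stat5b (-0.24, adjusted p = 0.299) did not pass. Socs2, a feedback target of STAT5, had normalized counts of 486, 366, 563 and 278 in Con-Veh and of 366, 135, 469 and 1004 in Con-DHT, so that its groups overlapped (limma adjusted p = 0.96). Cish, of the same list, had normalized counts of 239, 72.4, 396 and 71.4 in Con-Veh and of 41.2, 35.8, 109 and 110 in Con-DHT. Its log2 fold change was -1.18 (limma adjusted p = 0.26), and that of Socs3 was -0.32 (limma adjusted p = 0.648). The groups overlapped for both genes.

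Downstream of the receptors and around the binding proteins, no gene of either list passed by limma. Of 21 genes of receptor-proximal signalling, 0 passed with limma, edgeR or DESeq2, while the numbers at an unadjusted p of at most 0.05 were 4, 4 and 5. Of 13 proteases of the binding proteins and their inhibitors, 0 passed with limma or edgeR and 3 with DESeq2. Each of the 3 tools put 4 of these 13 at an unadjusted p of at most 0.05. Of all tested genes, DESeq2 called 11.0%, and limma put 23.2% at an unadjusted p of at most 0.05. The list medians were 0.08 and -0.10. Pappa, the protease of IGFBP4, was low, with normalized counts between 7.83 and 21.0, and had a log2 fold change of 0.56 (adjusted p = 0.315). Among 18 genes of the insulin and fasting response, 2 passed by limma, beside 7.21% of all tested genes, around a median of 0.04. Trib3, a pseudokinase induced by stress that binds AKT, had a log2 fold change of 0.85 (SE 0.12, limma adjusted p = 0.00273) and Ddit3, a stress transcription factor, one of -1.01 (SE 0.21, limma adjusted p = 0.0191). The call of Ddit3 was lost without Con-Veh replicate 2 (adjusted p = 0.0548), without Con-DHT replicate 1 (0.0547) and with spike-in scaling (0.146), whereas that of Trib3 was kept in each of these fits. Genes that answer to insulin and fasting as Igfbp1 does, such as Pck1 (0.29, adjusted p = 0.322) and G6pc (0.02, adjusted p = 0.972), did not pass.

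**Figure D5:**
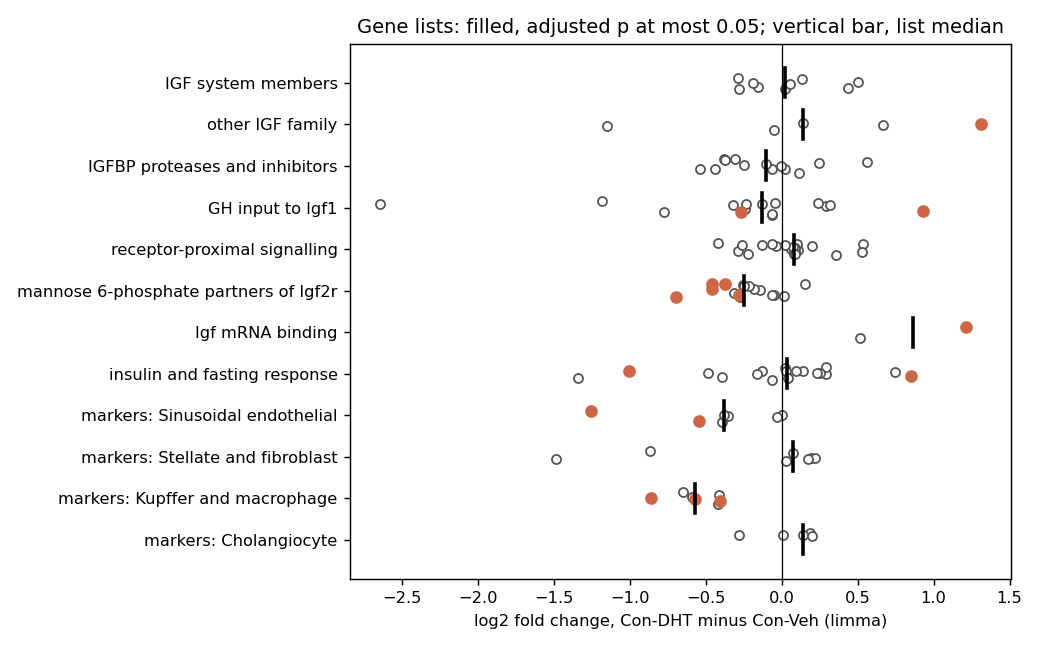
Log2 fold changes (Con-DHT minus Con-Veh, limma) of the tested genes of each list (points, filled where the adjusted p is at most 0.05) with the list median (vertical bar). The members centre on 0.02 with none filled, and the partners of Igf2r (median -0.25) and the Kupffer cell markers (median -0.57) lie mostly below 0.

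The list with the largest number of calls was that of the mannose 6-phosphate system in which IGF2R works, though list sizes differed. Of its 16 tested genes 5 passed, all lower in Con-DHT, where 2.61% of all tested genes passed and were lower. Of the 16, 14 had values below 0, with a median of -0.25. Genes that fell included Lgmn (-0.46, adjusted p = 0.0127), Ctsb (-0.46, adjusted p = 0.02), Gga2 (-0.37, adjusted p = 0.0242) and Man2b1 (-0.28, adjusted p = 0.0416), all by limma. Lgmn and Ctsb encode lysosomal proteases, Man2b1 a lysosomal glycosidase, and Gga2 an adaptor that sorts the receptor. With spike-in scaling 0 of the 16 passed, their median was -0.05 beside 0.188 for all genes, and edgeR and DESeq2 called 4 and 6. As each mouse was left out, between 1 and 4 passed: 1 without Con-Veh replicate 2, Con-Veh replicate 4 or Con-DHT replicate 1, and 3 without Con-Veh replicate 1, Con-Veh replicate 3 or Con-DHT replicate 2. Lgmn passed in each of these 8 fits and Man2b1 in none of them (adjusted p between 0.0604 and 0.111). Among the other genes of the list, the cation-dependent receptor M6pr had a log2 fold change of -0.14 (adjusted p = 0.218).

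Markers of Kupffer cells, macrophages rich in lysosomes, had lower values beside these genes. All 7 had values below 0 and 3 passed (Cd5l, Vsig4 and Clec4f), and their summed normalized counts were 6317 to 7844 in Con-Veh and 4289.9 to 5904 in Con-DHT. Of 7 markers of sinusoidal endothelial cells, 2 passed, both lower (Stab2 and Lyve1), with sums of 3511 to 3873 and 2608 to 3085. Of all tested genes, 2.61% passed by limma and were lower. No listed gene of either type was absent from the table. With spike-in scaling 0 of the Kupffer cell markers and 1 of the endothelial markers passed, and in fits without 1 mouse the counts were 2 to 5 and 0 to 2. The endothelial count was 0 without Con-Veh replicate 4 or Con-DHT replicate 1, and the highest Kupffer cell count, 5, came without Con-DHT replicate 1. The part of these cells in the lower values of the mannose 6-phosphate genes was not tested, and Igf2r itself had a log2 fold change of 0.13. Markers of cholangiocytes (0 of 5) and of the pericentral (0 of 4) and periportal zones (0 of 4) gave no call with limma, edgeR or DESeq2. At an unadjusted p of at most 0.05 there were 0, 0 and 2 by each tool, where limma put 23.2% of all tested genes. Log2 fold changes below 0 by limma were held by 1, 2 and 4 of them. The periportal median was -0.22, and with spike-in scaling it was -0.02 with 2 of the 4 below 0. Summed periportal markers overlapped, at 58345 to 78579 in Con-Veh and 49643 to 69900 in Con-DHT. Of 6 hepatocyte markers 1 passed, Serpina1c, which was higher. Jchain was the 1 gene of the B and plasma cell list in the table and did not pass (adjusted p = 0.171), and the T cell and neutrophil markers were not analysed here.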

How the data were processed

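RNA from 8 livers (4 Con-Veh, 4 Con-DHT) was sequenced with 1 library per mouse, and groups and replicate numbers were taken from the labels. The authors trimmed reads with Trimmomatic, aligned them with STAR, counted uniquely mapped exon reads with featureCounts and normalized with DESeq2, and the submitters' processing notes name GRCm39. The deposited values are a normalized signal: counts divided by a size factor per library. The table holds 14371 features, none with fewer than 81 reads in all, of which 54 are spike-ins. Dividing by the worth of 1 read gave whole reads (within 0.01) for 100% of the values, and edgeR 4.0.16 and DESeq2 1.42.0 were run on these. The main test was limma 3.58.1 (lmFit, eBayes with an intensity trend, R 4.3.3) on log2(value + 1) for 14312 mouse genes of mean at least 10, Benjamini-Hochberg adjusted, at a threshold of 0.05. Symbols (14292 genes), positions and exon lengths came from GENCODE M21 (GRCm38), matched by Ensembl identifier, and promoters from RefSeq.

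The members and lists were chosen with earlier results of these data known. All members were named, and of each other list the genes past the threshold, at most 6, with all genes of the IGF family list; other genes were named after their values were seen. Some items are not reported here. Motif windows were to be printed for members past the threshold, and since there were none the 2 shown were chosen after their letters were read. Libraries of a group differed by far more than sampling noise (chi-square per degree of freedom 19.5 to 62.9). On simulated counts with 194 changed genes of 14159, limma found 79.4% of 2-fold and 96.9% of 4-fold changes with 8.06% false calls; edgeR gave 9.04% and DESeq2 15.5% false calls, so that counts called by DESeq2 are the least strict. Alternatives were pseudocounts of 0.1 and 5, filters of none and of mean 50, 4 scalings, 2 variance models, the replicate block, both count tests and leaving out each mouse.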

Additional observations from a re-analysis of the deposited data

Results flagged for a closer look

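Among 48 groups of 4 livers examined, in which chance alone flags about 1 in 20, a single liver stood far from the others in 1. Igf2 had a normalized count of 124 in Con-DHT replicate 1, and between 19.4 and 27.6 in the other Con-DHT livers, while the Con-Veh livers were at 15.4, 58.9, 46.9 and 43.5. The gap to the next liver was 0.921 of the range of the group, above Dixon's 95% critical value for groups of this size. Without that liver the log2 fold change of Igf2 was -0.64, and the adjusted p was 0.433 by limma.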

How the results depend on the processing

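Of the 9 members, 0 passed under each of the 13 settings other than leaving out a mouse, and 0 to 1 with a mouse left out, Igfbp2 without Con-Veh replicate 1. The count over all genes (1032) was 648 with a mean of at least 50, 637 with spike-in scaling, 1569 with DESeq2, and 633 to 905 with a mouse left out. With spike-in scaling, the log2 fold changes of Igfals and Igfbp7 were 0.0425 and 0.0115, above 0, and that of Igf2 was 0.13. Igf2 was also above 0 with an equal total without the Mup genes (0.0418), edgeR (0.24) and DESeq2 (0.24). With a mouse left out, Igf1 ranged from -0.0548 to 0.114 and Igf2 from -0.64 to 0.23. The cause was not tested.

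Same-numbered mice of the groups did not deviate together (correlations of -0.186, -0.006, -0.022 and -0.076), and not every mouse correlated best with its own number. Such correlations cannot show how the mice were numbered, housed or processed. The main test used the numbers only as names. With the replicate block 0 members and 700 genes passed. Among members, reads were fewest for Igf1r, and the SE of the log2 fold change was widest for Igfbp1 and Igfbp3.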
